A study of Mus musculus with 15 samples.

Results

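The CC chemokines described here are 10 genes, Ccl2, Ccl3, Ccl4, Ccl5, Ccl6, Ccl7, Ccl8, Ccl9, Ccl11 and Ccl12, taken by gene name from a table of 40481 genes measured in RPE/choroid complex of mouse eyes, that is, retinal pigment epithelium (RPE) with the vascular layer that lies beneath it. All 10 passed the filter on low counts, as did 17991 genes in all. The 15 libraries comprised 8 from INK-ATTAC mice and 7 from control mice. INK-ATTAC mice carried Abca1/Abcg1 flox/flox, LysM-Cre and the INK-ATTAC transgene, a fusion of FKBP and caspase 8 driven by the promoter of p16Ink4a, the cell cycle inhibitor encoded by Cdkn2a. Control mice carried Abca1/Abcg1 flox/flox and LysM-Cre without the transgene. Both groups received AP20187, the drug that dimerizes the fusion protein, by intraperitoneal injection. The series text gives injections on alternate days over 3 months for the INK-ATTAC mice. Per its title, the study asks what removing senescent cells does to this tissue in mice with subretinal drusenoid deposits. Every mouse therefore carried a Cre that the Lyz2 (LysM) promoter drives in myeloid cells and floxed cholesterol transporter genes, and there was no group without them or without the drug. The labels give no ages and leave unsaid if every library is its own animal, and p-values therefore measure the spread between these libraries.

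CC chemokines are small secreted proteins with a pair of adjacent cysteines that bind receptors on leucocytes and guide their migration. Those called monocyte chemoattractant proteins (Ccl2, Ccl7, Ccl8 and Ccl12) draw monocytes and other leucocytes, Ccl2, Ccl7 and Ccl12 largely through Ccr2, while the macrophage inflammatory proteins Ccl3 and Ccl4 and the T cell chemokine Ccl5 draw macrophages and lymphocytes. In the RPE and choroid, Ccl2 and Ccr2 are best known for recruiting monocytes in models of retinal degeneration, and secretion of several CC chemokines is a known part of the senescence-associated secretory phenotype.

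The libraries held between 39121503 and 65065950 counts. The 12 RPE markers, summed, held 76313 to 99350 CPM (library-size-normalized counts per 1e6 counts) in INK-ATTAC libraries and 68867 to 89931 CPM in control libraries, and all 10 choroidal endothelium markers were detected. Cdkn2a, whose promoter drives the transgene, held 6 counts over the 8 INK-ATTAC libraries and 7 counts over the 7 control libraries, too few to check the ablation. Xist, transcribed from the inactive X chromosome in female cells, exceeded the Y-linked gene Ddx3y in 4 INK-ATTAC and 4 control libraries (high Xist) and lay below it in 4 INK-ATTAC and 3 control libraries (low Xist). Replicates 1 to 4 of INK-ATTAC and 1 to 3 of control were the low-Xist libraries. In bulk tissue, fewer cells of a type and less RNA per cell cannot be told apart.

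The 10 genes lie on chromosome 11 (GRCm38, GENCODE annotation) in 2 clusters separated by 1408978 bases. The first, from 82035571 to 82116799, holds Ccl2, Ccl7, Ccl11, Ccl12 and Ccl8, all on the plus strand. The second, from 83525778 to 83664683, holds Ccl5, Ccl9, Ccl6 and Ccl3 on the minus strand and Ccl4 on the plus strand. Ccl2 and Ccl6 each lie within the span of a gene on the opposite strand (Gm17268 and E230016K23Rik), with 0 bases of shared exon. The strand setting of the counting is not given in the sources used here, so intronic reads of such a partner could not be told apart.

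RefSeq promoter sequences (GRCm38.p6), from 250 bases before to 50 bases after the annotated start, were found for 5 of the 10 genes. 4 of them are shown, Ccl3 because it had the lowest p-value between groups, and Ccl6, Ccl8 and Ccl9 because their transcripts moved together across libraries. They lie at chr11:83649329-83649628 (Ccl3, minus strand), chr11:83593038-83593337 (Ccl6, minus strand), chr11:82114935-82115234 (Ccl8, plus strand) and chr11:83578587-83578886 (Ccl9, minus strand). Each is written 5′ to 3′ on the gene's own strand, and capitals mark a match to TATAAA, or to its complement TTTATA, on either strand.
Ccl3: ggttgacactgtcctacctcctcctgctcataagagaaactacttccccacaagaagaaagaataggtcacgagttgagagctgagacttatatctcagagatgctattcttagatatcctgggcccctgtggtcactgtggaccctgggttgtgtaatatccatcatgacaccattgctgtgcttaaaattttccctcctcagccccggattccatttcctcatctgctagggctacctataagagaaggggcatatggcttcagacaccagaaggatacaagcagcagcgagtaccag
Ccl6: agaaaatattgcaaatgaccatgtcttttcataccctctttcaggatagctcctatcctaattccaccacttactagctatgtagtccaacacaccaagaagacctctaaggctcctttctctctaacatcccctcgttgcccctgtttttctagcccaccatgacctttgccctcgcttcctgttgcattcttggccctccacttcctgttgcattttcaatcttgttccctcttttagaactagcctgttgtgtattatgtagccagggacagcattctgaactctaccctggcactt
Ccl8: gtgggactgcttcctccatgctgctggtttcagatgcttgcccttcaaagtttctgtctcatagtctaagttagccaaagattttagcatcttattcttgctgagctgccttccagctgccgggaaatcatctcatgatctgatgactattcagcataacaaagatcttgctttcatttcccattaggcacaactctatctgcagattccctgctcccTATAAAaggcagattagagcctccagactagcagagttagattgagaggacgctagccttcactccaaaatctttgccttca
Ccl9: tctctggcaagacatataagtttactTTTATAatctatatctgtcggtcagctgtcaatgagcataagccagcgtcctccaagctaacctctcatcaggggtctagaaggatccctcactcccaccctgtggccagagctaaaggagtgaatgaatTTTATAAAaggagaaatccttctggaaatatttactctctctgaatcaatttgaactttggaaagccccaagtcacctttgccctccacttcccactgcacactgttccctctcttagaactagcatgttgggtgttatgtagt
Ccl8 held 1 TATAAA match, which began at -32 from the annotated start. Ccl9 held 3, of which the outermost began at -224 and -92, and 2 of the 3 overlap in a single run. Ccl3 and Ccl6 held none in this window, and Ccl12, not printed, held 1 at -31. Such a match occurred in 13.6% of the 32851 promoters of the same table. The AP-1 motif TGANTCA was found once, in Ccl9 at -53, and occurred in 7.81% of all promoters. The NF-kB consensus was found once, also in Ccl9, at -35, and occurred in 8.46% of all promoters. These are matches of letters, and binding was not measured.

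Divided by exon length, Ccl8 was the most abundant of the 10 transcripts, at 61.9 ± 43.1 CPM per kb in INK-ATTAC libraries and 58.9 ± 37.4 CPM per kb in control libraries (SD, n = 8 and 7). Ccl6, a macrophage chemokine of rodents, followed at 36.2 ± 7.26 CPM per kb in INK-ATTAC and 36.7 ± 7.78 CPM per kb in control libraries. Ccl5, Ccl11 and Ccl12 came next in both groups, with Ccl5 at 18.9 ± 14.8 CPM per kb in INK-ATTAC and 17.1 ± 12.2 CPM per kb in control libraries. Ccl3 and Ccl9 came last in both groups, with Ccl9 at 3.20 ± 0.58 CPM per kb in INK-ATTAC and 3.21 ± 0.88 CPM per kb in control libraries. Ccl4 stood sixth in INK-ATTAC and eighth in control libraries, at means of 9.97 and 5.86 CPM per kb, changing places with Ccl2 and Ccl7. The ranges of every pair of neighbours in this order overlapped. Such ranges do not use the fact that all genes were measured in the same libraries, and the order within libraries was not tested. The lowest raw count of any of the 10 genes in any library was 65 (Ccl12 in control 2) and the highest 4226 (Ccl6 in INK-ATTAC 8).

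**Figure D1:**
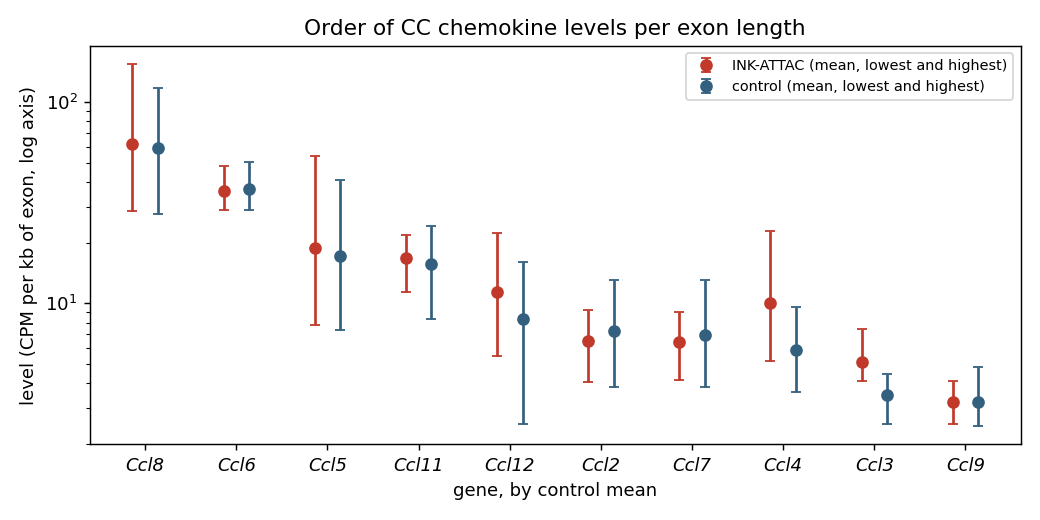
Level of each CC chemokine in CPM per kb of exon (log axis), with INK-ATTAC in red to the left of control in blue; points are means and bars run from the lowest to the highest library. Ccl8 and Ccl6 lie at the top, with means of 61.9 and 36.2 in INK-ATTAC libraries, and the bars of neighbouring genes overlap throughout.

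Ccl3 and Ccl4, the macrophage inflammatory proteins, were the genes of the family with the lowest p-values between INK-ATTAC and control tissue, but neither passed the test over all genes. Ccl3, a chemoattractant made by activated macrophages, had a lowest, median and highest level of 3.12, 3.47 and 5.68 CPM in INK-ATTAC libraries and of 1.91, 2.43 and 3.39 CPM in control libraries. All 8 INK-ATTAC libraries lay above the control median and 4 above every control library, while 5 of 7 control libraries lay below every INK-ATTAC library. The group ranges overlapped between 3.12 and 3.39 CPM. The means were 3.88 ± 0.93 CPM in INK-ATTAC and 2.66 ± 0.55 CPM in control libraries (SD). The fitted log2 fold change of INK-ATTAC over control was 0.55 ± 0.17 (SE), 1.46-fold, with an unadjusted p of 0.00438 that ranked 48th among 17991 genes and an adjusted p of 1.00 (edgeR quasi-likelihood test, Benjamini-Hochberg). Leaving out each library in turn gave log2 fold changes from 0.44 to 0.60.

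Ccl4, a chemoattractant made by activated macrophages and lymphocytes, had a lowest, median and highest level of 3.41, 4.52 and 14.98 CPM in INK-ATTAC libraries and of 2.39, 3.71 and 6.32 CPM in control libraries. INK-ATTAC 1, 2 and 5 lay above every control library, at 10.07, 14.98 and 6.95 CPM, and the ranges of the remaining libraries overlapped with those of the control group. Its log2 fold change was 0.77 ± 0.30 (SE), with an unadjusted p of 0.0220 and an adjusted p of 1.00 (edgeR). Without INK-ATTAC 2 the log2 fold change was 0.47, with an unadjusted p of 0.0734, and without INK-ATTAC 1 it was 0.64, with an unadjusted p of 0.0514.

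**Figure D2:**
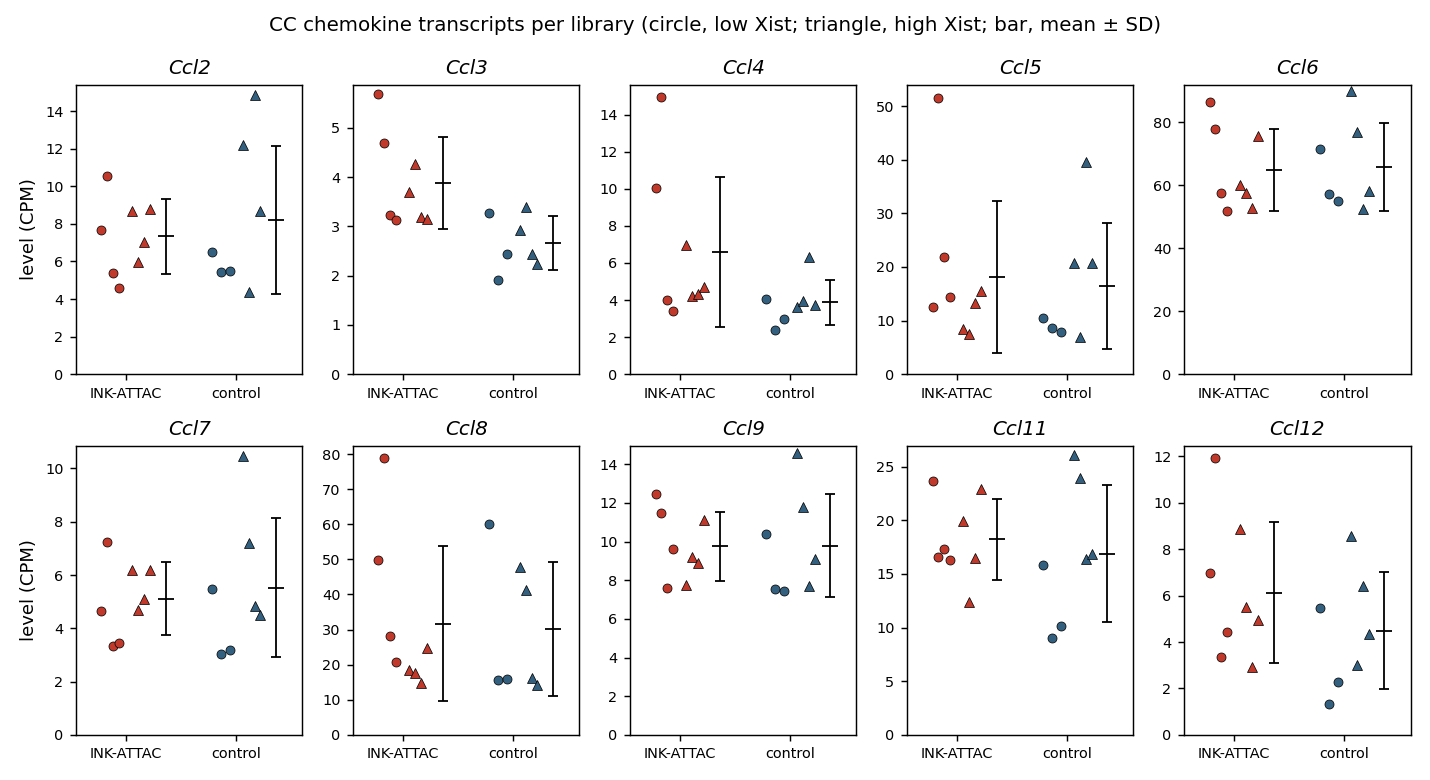
Level of each CC chemokine in CPM in every library, INK-ATTAC (red) left of control (blue); circles are low-Xist and triangles high-Xist libraries, and bars give the mean ± SD. For Ccl3, 4 of 8 INK-ATTAC libraries lie above all 7 control libraries, while single libraries of 51.6 CPM (INK-ATTAC 2) and 39.5 CPM (control 6) stand out for Ccl5.

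The monocyte chemoattractants showed no change in either direction that passed the test. Ccl2, the main Ccr2 ligand, ranged from 4.61 to 10.6 CPM with a median of 7.34 in INK-ATTAC libraries and from 4.35 to 14.9 CPM with a median of 6.51 in control libraries, with a log2 fold change of -0.16 ± 0.25 (SE). Its 2 highest libraries were control 6 and control 4, and the INK-ATTAC range lay within the control range. Ccl7, a second Ccr2 ligand, averaged 5.10 ± 1.37 CPM in INK-ATTAC and 5.53 ± 2.60 CPM in control libraries, with a log2 fold change of -0.11 ± 0.24. Ccl12, a mouse Ccr2 ligand, had the widest relative range of the family, 8.84-fold between its lowest library (control 2, 1.35 CPM) and its highest (INK-ATTAC 2, 11.9 CPM). It averaged 6.12 ± 3.03 CPM in INK-ATTAC and 4.50 ± 2.53 CPM in control libraries, at a fitted log2 fold change of 0.45 ± 0.36 (unadjusted p = 0.227). Ccl8, which in mice signals through Ccr8, ran from 14.7 to 78.9 CPM with a median of 22.7 in INK-ATTAC libraries and from 14.1 to 60.0 CPM with a median of 16.2 in control libraries. Its levels were spread unevenly in both groups. INK-ATTAC 1 and 2 and control 1, 4 and 5 held 41.2 CPM or more, and the other 10 libraries 28.1 CPM or less. The share of counts from mitochondrial genes was 2.75% and 2.81% in INK-ATTAC 1 and 2. It was 2.68%, 3.28% and 3.67% in control 1, 4 and 5. In the other 10 libraries it ran from 2.26% (control 7) to 2.69% (control 2), and its part in the Ccl8 levels was not tested. The log2 fold change of Ccl8 was 0.07 ± 0.40.

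Ccl6 and Ccl9, the Ccr1 ligands of myeloid cells in rodents, were the steadiest of the family. Ccl6 averaged 64.97 ± 13.04 CPM in INK-ATTAC and 65.89 ± 13.97 CPM in control libraries, and its highest library held 1.73 times its lowest. Ccl9 averaged 9.76 ± 1.78 CPM in INK-ATTAC and 9.79 ± 2.67 CPM in control libraries, with a ratio of 1.96 between its extremes. Their log2 fold changes were -0.02 ± 0.14 for Ccl6 and -0.0033 ± 0.16 for Ccl9. The groups overlapped almost fully for both genes.

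Ccl11 (eotaxin), which attracts eosinophils through Ccr3, averaged 18.2 ± 3.78 CPM in INK-ATTAC and 16.9 ± 6.36 CPM in control libraries. Its 2 lowest libraries were control 2 and control 3, at 8.99 and 10.2 CPM, and its 2 highest control 4 and control 5, at 26.1 and 23.9 CPM. All 8 INK-ATTAC libraries lay between these pairs, and the log2 fold change was 0.11 ± 0.20. Ccl5, made by activated T cells and NK cells, ran from 7.43 to 51.6 CPM with a median of 13.8 in INK-ATTAC libraries and from 7.01 to 39.5 CPM with a median of 10.5 in control libraries. A single library stood far above the rest in each group, INK-ATTAC 2 and control 6, where the next were at 21.8 and 20.8 CPM. The log2 fold change of Ccl5 was 0.14 ± 0.43, and it was -0.31 without INK-ATTAC 2 and 0.52 without control 6.

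By edgeR's quasi-likelihood test, 0 of the 10 genes passed an adjusted p of 0.05, as did 0% of all genes tested. DESeq2 called 0 of the 10 and 0.0334% of all genes, limma-voom 0 of the 10 and 0% of all genes, and limma-voom with sample quality weights 0 of the 10 and 0.0111% of all genes. At an unadjusted p under 0.05, edgeR had 2 of 10 (Ccl3 and Ccl4, both higher), against 4.14% of all genes in either direction and 2.2% of all genes higher. With DESeq2 that count was 2, against 4.21% of all genes, with limma-voom 1, against 4.34%, and with quality weights 2, against 5.94%. Of the 10, 6 had a positive and 4 a negative fold change, with a median log2 fold change of 0.09 beside -0.00097 over all genes tested. The groups did not overlap for 0 of the 10 genes, and for 0.0222% of all genes tested. In the authors' deposited table, Ccl3 had a log2 fold change of 0.67 (confidence limits 0.30 to 1.04), a p-value of 0.00139 and an adjusted p of 0.606. Ccl4 had 0.71 in the authors' deposited table, with a p-value of 0.0332. These were the 2 members under 0.05 among 10 in the authors' deposited table, against 6.42% of its genes. There 9 of 10 members had positive fold changes, Ccl2 being the exception at -0.08.

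The 2 Xist classes gave different values for most members. Among the low-Xist libraries, all 10 genes had a positive log2 fold change, and 4 had an unadjusted p under 0.05, against 5.01% of all genes. These were Ccl3 at 0.72 ± 0.28 (SE), Ccl4 at 1.37 ± 0.49, Ccl5 at 1.48 ± 0.45 and Ccl11 at 0.66 ± 0.21. Among the high-Xist libraries, 2 of 10 were positive, Ccl3 at 0.38 ± 0.20 and Ccl4 at 0.19 ± 0.24. Ccl5 alone had an unadjusted p under 0.05 there, at -0.98 ± 0.42, against 4.02% of all genes. No member had an adjusted p under 0.05 in either class, where the lowest were 0.974 in low-Xist and 0.960 in high-Xist libraries (edgeR).

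The difference was tested directly as the interaction of group with Xist class. It was negative for all 10 genes, that is, the fold change of INK-ATTAC over control was lower among high-Xist libraries. Ccl5 had the lowest p, with a difference of -2.46 ± 0.69 (SE) on the log2 scale and an unadjusted p of 0.00281. Ccl11 followed at -0.88 ± 0.33, with an unadjusted p of 0.0168. The other 8 had unadjusted p-values of 0.0563 or more. Of all genes tested, 4.77% had an unadjusted p under 0.05 for this interaction, and 0 genes, members included, passed an adjusted p of 0.05, with the members' lowest adjusted p at 0.876 (edgeR). Among low-Xist libraries Ccl5 averaged 25.1 CPM in INK-ATTAC and 9.01 CPM in control libraries, and among high-Xist libraries 11.2 CPM in INK-ATTAC and 21.99 CPM in control libraries. The mean log2 CPM of the T and NK cell markers differed between the same libraries: among low-Xist libraries it ran from 0.22 to 1.56 in INK-ATTAC and from 0.13 to 0.38 in control, and among high-Xist libraries from 0.10 to 0.80 in INK-ATTAC and from 0.32 to 1.57 in control. Their part in the Ccl5 difference was not tested. The genes share libraries and covary, so the 10 signs are not independent.

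**Figure D3:**
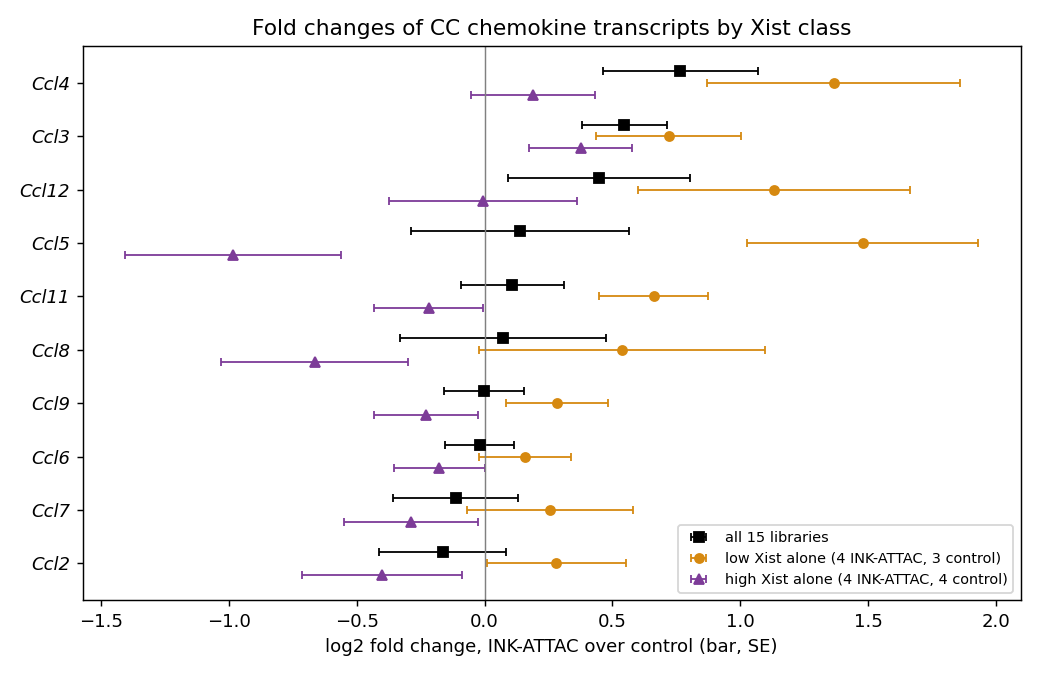
Log2 fold change of INK-ATTAC over control for each CC chemokine, over all 15 libraries (black squares), in low-Xist libraries alone (orange circles) and in high-Xist libraries alone (purple triangles); bars are SE. All 10 low-Xist values are positive, whereas 8 of the 10 high-Xist values are negative, with Ccl5 at 1.48 and -0.98.

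Across the 15 libraries, 17 of the 45 pairs of members passed an adjusted p of 0.05 (two-sided permutation test of Pearson r on log2 CPM with group means removed, Benjamini-Hochberg over the 45 pairs). Of the 45 pairs, 97.8% had a positive r, beside 49.8% of all pairs of genes tested. The 17 pairs had an r of 0.633 or more, which 3.54% of all pairs of genes tested reached. The relations differed in value between the Xist classes. In low-Xist libraries 0 of 45 pairs had a negative r and the median was 0.809, while in high-Xist libraries 12 of 45 were negative and the median was 0.294, a difference that was not tested. The closest pair was Ccl6 and Ccl9, with r = 0.884 (adjusted permutation p = 0.0013) and rho = 0.743 (adjusted permutation p = 0.027). Their r was 0.853 in low-Xist and 0.922 in high-Xist libraries, and 0.801 without INK-ATTAC 1 and control 4, which lay farthest from the median. Ccl8 moved with both, at r = 0.833 with Ccl6 and r = 0.744 with Ccl9, and also with Ccl3, at r = 0.766, each at an adjusted permutation p of 0.011 or less. Ccl6 and Ccl9 are neighbours in 1 cluster, whereas Ccl8 lies in the other. Control 4 and control 5 had the fewest counts (39121503 and 44350178) and the highest mitochondrial shares (3.28% and 3.67%). The part of such differences between libraries in the correlations of members was not tested.

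Ccl7 and Ccl11 moved together at r = 0.748 (rho = 0.657), and each also passed the threshold with Ccl6 and Ccl9, at r from 0.680 to 0.747. Without control 2 and control 4, r was 0.559 for Ccl7 with Ccl11 and 0.572 for Ccl7 with Ccl9. Without INK-ATTAC 1 and control 4, r was 0.518 for Ccl11 with Ccl6, 0.558 for Ccl11 with Ccl9 and 0.734 for Ccl7 with Ccl6. Ccl3 passed with Ccl6 at r = 0.713 and, by Pearson r alone, with Ccl9 at r = 0.650.

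Ccl2 correlated with Ccl12 at r = 0.738 (rho = 0.771), with Ccl5 at r = 0.704 (rho = 0.632) and with Ccl4 at r = 0.634 (rho = 0.614), each past the threshold by both measures. Ccl4 correlated with Ccl12 at r = 0.736 (rho = 0.729) and with Ccl3 at r = 0.644 (rho = 0.732). The Ccl3 and Ccl4 relation was at r = 0.854 in low-Xist and 0.071 in high-Xist libraries. Ccl12 also correlated with Ccl7, at r = 0.717 (rho = 0.636), with r of 0.956 in low-Xist and 0.400 in high-Xist libraries. Without control 2 and control 4 that r was 0.531. Ccl5 passed the threshold with Ccl2 alone. Ccl3 and Ccl5 had r = -0.028 (rho = -0.189), the lowest of the 45, and r of 0.269 in low-Xist and -0.438 in high-Xist libraries. By position, 7 of 20 pairs within a cluster and 10 of 25 pairs across clusters passed the threshold, with median r of 0.547 and 0.528.

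**Figure D4:**
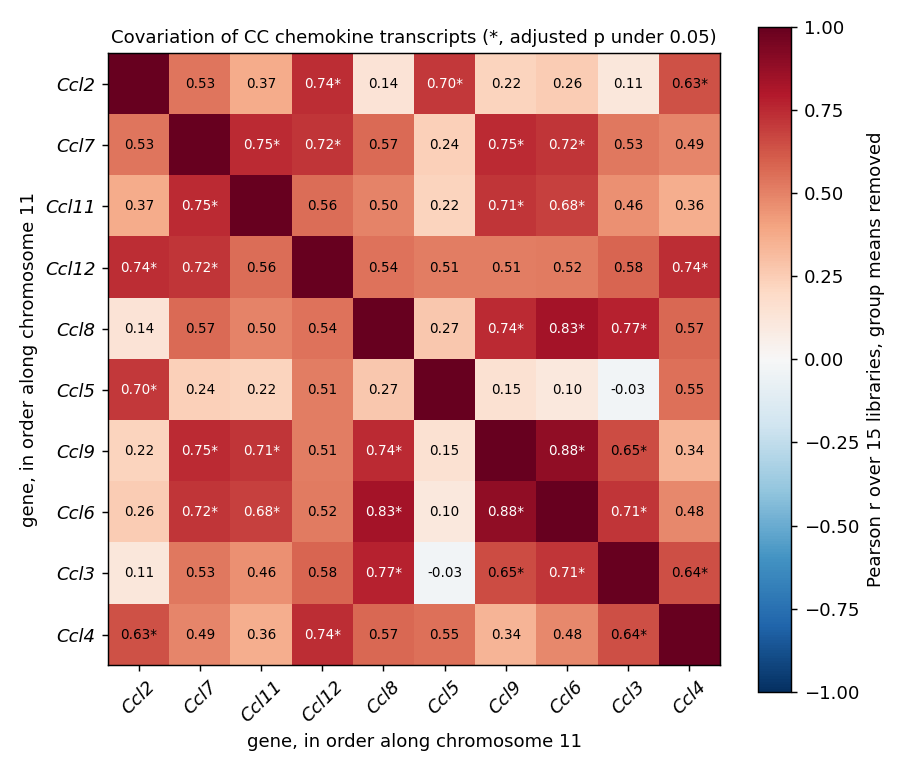
Pearson r of each pair of CC chemokines over 15 libraries with group means removed, genes in order along chromosome 11; an asterisk marks an adjusted permutation p under 0.05. Ccl6, Ccl8 and Ccl9 form 3 strongly related pairs (0.83, 0.88 and 0.74), and Ccl5 is close to 0 with Ccl3.

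Over 11820 genes whose mean log2 CPM reached 1, those whose levels most resembled each member over the 15 libraries were ranked by the same group-centred r, as a description. For Ccl5 they were Nkg7, a granule protein of cytotoxic lymphocytes, at r = 0.966, and Cd8b1, a chain of the CD8 coreceptor, at r = 0.914. For Ccl4 they were Cd52, a leucocyte surface protein, and Slamf9, at r = 0.844 and 0.842. For Ccl2 they were Pyroxd2 and H2-DMb1, an MHC class II chaperone subunit, at r = 0.803 and 0.800, and for Ccl12 Il13ra2 and Slfn2, at r = 0.896 and 0.857. Ccl3 was closest to Znhit3 and to Rarres2, which encodes the chemoattractant chemerin, at r = 0.909 and 0.857. Ccl6 was closest to Ccl9 and Cdk7, Ccl7 to Chordc1 and Larp7, Ccl8 to Rtn4 and Bnip3, Ccl9 to Lnpk and Ier3ip1, and Ccl11 to Ero1lb and Golga1, all at r of 0.864 or more.

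The members were next set against 9 cell type marker lists, as the mean log2 CPM of each list with group means removed, which gave 90 relations. Ccl5 followed the T and NK cell markers at r = 0.928 (adjusted permutation p = 9.0e-04) and rho = 0.896 (adjusted permutation p = 0.0027), with r of 0.906 in low-Xist and 0.957 in high-Xist libraries, and 0.856 without INK-ATTAC 2 and control 6. Its unadjusted Pearson p of 1e-05 is the smallest that 100000 permutations can give. The summed T and NK cell markers ran from 27.4 to 75.3 CPM in INK-ATTAC libraries, highest in INK-ATTAC 2, and from 25.4 to 78.8 CPM in control libraries, highest in control 6. These are the libraries in which Ccl5 stood apart. By mean log2 CPM of these markers, INK-ATTAC 3 came close to INK-ATTAC 2, at 1.49 beside 1.56. Its Ccl5 was 21.8 CPM, beside 51.6 CPM in INK-ATTAC 2. Ccl5 also followed the monocyte markers, at r = 0.719 (adjusted permutation p = 0.038) and rho = 0.789 (adjusted permutation p = 0.025), with r = 0.572 without control 5 and control 6. The 14 monocyte markers summed to 66.6 to 146.8 CPM in INK-ATTAC libraries and to 64.5 to 168.8 CPM in control libraries.

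Ccl6 and Ccl9 followed the macrophage markers, at r = 0.731 (rho = 0.761) for Ccl6 and r = 0.718 (rho = 0.732) for Ccl9, both with an adjusted permutation p under the threshold by either measure. Ccl8 (r = 0.686) and Ccl3 (r = 0.679) followed the same list past the threshold by Pearson r, with adjusted permutation p of 0.045 and 0.047, but not by rho, with adjusted permutation p of 0.053 and 0.147. Summed over 18 genes, the macrophage markers ran from 2161 to 2719 CPM in INK-ATTAC and from 2124 to 2776 CPM in control libraries, and 4 had a positive and 14 a negative fold change, with 0 at an unadjusted p under 0.05. Ccl8 ran against the choroidal endothelium markers, at r = -0.827 (adjusted permutation p = 0.0036) and rho = -0.800 (adjusted permutation p = 0.025), with r of -0.883 in low-Xist and -0.757 in high-Xist libraries, and -0.792 without INK-ATTAC 2 and control 6. Ccl6 also ran against them by both measures, at r = -0.687 (adjusted permutation p = 0.045) and rho = -0.714 (adjusted permutation p = 0.049). Ccl3 did so by Pearson alone, at r = -0.710 (adjusted permutation p = 0.042) and rho = -0.679 (adjusted permutation p = 0.058). The summed endothelial markers ran from 335.6 to 597.6 CPM in INK-ATTAC and from 316.3 to 610.5 CPM in control libraries. The part of these cells in the levels of Ccl8, Ccl6 and Ccl3 was not tested. All lists were measured in the same libraries, so the relations with different lists are not independent of each other.

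**Figure D5:**
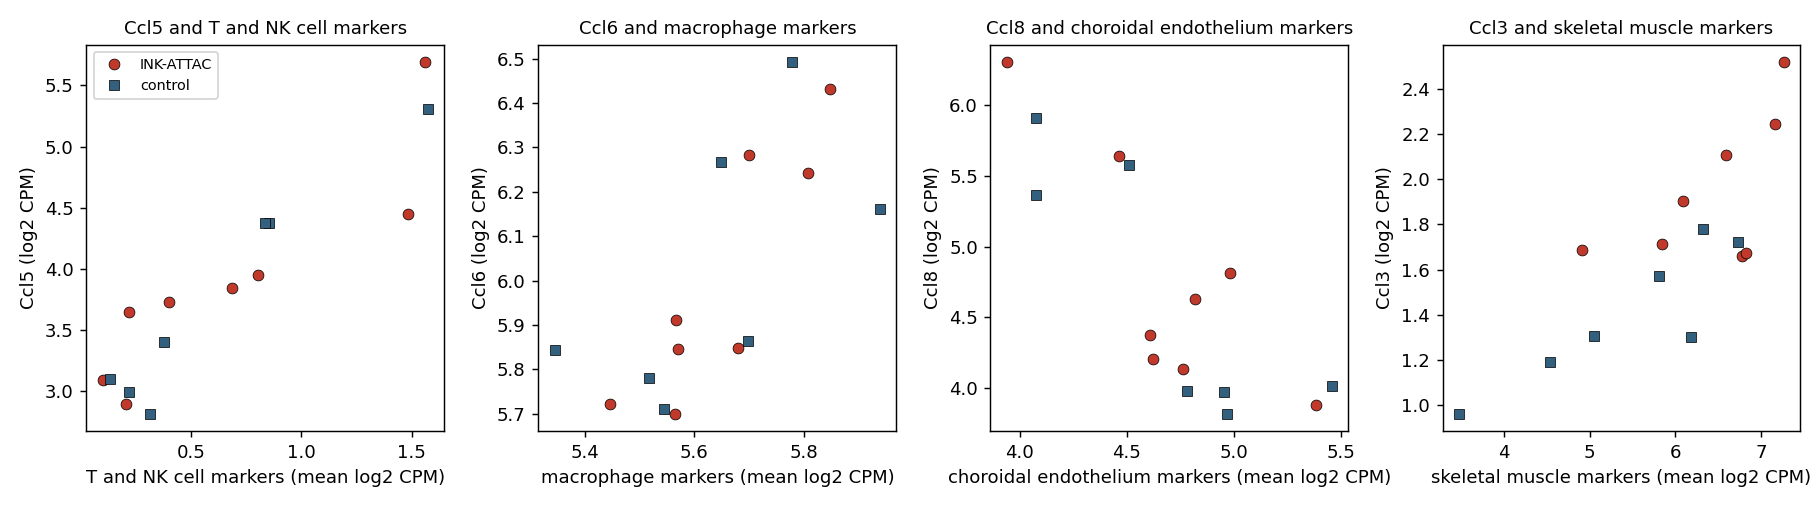
Log2 CPM of 4 CC chemokines against the mean log2 CPM of a marker list in each library, INK-ATTAC as red circles and control as blue squares. Ccl5 is higher where T and NK cell markers are higher (group-centred r = 0.928), Ccl6 with macrophage markers (0.731) and Ccl3 with skeletal muscle markers (0.738), while Ccl8 is lower where choroidal endothelium markers are higher (-0.827).

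Skeletal muscle markers moved with Ccl3 (r = 0.738, adjusted permutation p = 0.038; rho = 0.700, adjusted permutation p = 0.053) and with Ccl8 (r = 0.687, adjusted permutation p = 0.045; rho = 0.729, adjusted permutation p = 0.042). Its 15 genes summed to 787.5 to 4209 CPM in INK-ATTAC libraries, median 2839 CPM, and to 317.3 to 2971 CPM in control libraries, median 1397 CPM. The group ranges overlapped. All 15 had a positive fold change, with a median log2 fold change of 0.86. In edgeR 0 had an adjusted p under 0.05 and 4 an unadjusted p under 0.05, against 4.14% of all genes. The 4 were led by Acta1, skeletal actin, at 1.17 ± 0.40 (SE). With the level of this list as a covariate, the log2 fold change was 0.31 ± 0.15 for Ccl3 (unadjusted p = 0.0560) and 0.42 ± 0.34 for Ccl4 (unadjusted p = 0.237), and 0 of the 10 genes kept an unadjusted p under 0.05 in edgeR, against 5.07% of all genes. With the macrophage list as covariate instead, the log2 fold change was 0.53 ± 0.14 for Ccl3 (unadjusted p = 0.00140) and 0.71 ± 0.29 for Ccl4 (unadjusted p = 0.0272), the 2 members under 0.05 in that fit, against 4.31% of all genes. Because all 15 muscle genes had a positive fold change, muscle level and group cannot be fully told apart in the muscle fit. The part of muscle in the Ccl3 and Ccl4 values was not tested. Muscle and endothelial levels were not independent either. INK-ATTAC 2 and control 1, highest of their groups in summed muscle markers, were lowest of their groups in mean log2 CPM of endothelial markers, at 3.94 and 4.08. Whether the muscle and endothelial relations of Ccl3 and Ccl8 are separate was not tested.

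Markers of other adjoining tissues also had fold changes of mostly 1 sign, with 0 genes past an adjusted p of 0.05 in edgeR. All 12 lens genes tested had a positive fold change, with a median log2 fold change of 2.61. Of these, 8 had an unadjusted p under 0.05, against 4.14% of all genes. The lens markers summed to 22.05 to 4220 CPM, median 261.9 CPM, in INK-ATTAC libraries and to 21.3 to 872.9 CPM, median 39.0 CPM, in control libraries. They were highest in INK-ATTAC 3 and control 3. Of 12 rod photoreceptor genes, 11 had a negative fold change, and they summed to 462.5 to 2511 CPM in INK-ATTAC and 798.9 to 2772 CPM in control libraries. All 7 erythrocyte genes tested had a negative fold change, and they summed to 114.3 to 1657 CPM in INK-ATTAC and 236.5 to 2011 CPM in control libraries. The part of these tissues in the Ccl3 and Ccl4 values was not tested.

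None of the CC chemokine receptors listed here passed the same test between groups. Of 14 genes for receptors and scavengers, 9 passed the count filter, 6 with a positive and 3 with a negative fold change, and 0 reached an adjusted or an unadjusted p under 0.05 in edgeR. Ccr2, the receptor of Ccl2, Ccl7 and Ccl12, averaged 7.66 ± 3.09 CPM in INK-ATTAC and 6.39 ± 1.74 CPM in control libraries, with a log2 fold change of 0.26 ± 0.24 (SE). Ccr1, which binds Ccl3, Ccl5, Ccl6 and Ccl9, averaged 1.16 ± 0.43 CPM in INK-ATTAC and 1.33 ± 0.48 CPM in control libraries. Ccr3 and Ccr8, the receptors of Ccl11 and of mouse Ccl8, failed the filter, with 28 and 68 counts over all 15 libraries. Among the scavengers, which bind chemokines without signalling as classical receptors do, Ackr1 averaged 0.71 ± 0.31 CPM in INK-ATTAC and 1.10 ± 0.80 CPM in control libraries, at a fitted log2 fold change of -0.63 ± 0.38 (unadjusted p = 0.121).

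Of the 14 other CC chemokine genes, 7 passed the filter, 4 with a positive and 3 with a negative fold change, and 0 reached an adjusted or an unadjusted p under 0.05. Ccl24, an eotaxin that binds Ccr3, averaged 1.21 ± 0.68 CPM in INK-ATTAC and 0.80 ± 0.60 CPM in control libraries. Ccl19, a ligand of Ccr7, averaged 1.24 ± 0.26 CPM in INK-ATTAC and 1.00 ± 0.25 CPM in control libraries. Ccl20, Ccl21a, Ccl21b, Ccl21c and Ccl26 had 0 counts in every library. Among 26 cytokine, NF-kB and AP-1 genes that regulate chemokine transcription, 23 were tested, 9 with a positive and 14 with a negative fold change, 0 past an adjusted p of 0.05 and 1 at an unadjusted p under 0.05, against 4.14% of all genes. That gene was Il1b, the inflammatory cytokine interleukin 1 beta, at 1.06 ± 0.57 CPM in INK-ATTAC and 1.95 ± 0.90 CPM in control libraries, at a fitted log2 fold change of -0.88 ± 0.35 (unadjusted p = 0.0231). Nfkbia, the NF-kB inhibitor induced by NF-kB itself, averaged 149.7 ± 25.9 CPM in INK-ATTAC and 127.9 ± 18.2 CPM in control libraries, with an unadjusted p of 0.0557.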

How the data were processed

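Per the labels, RNA of RPE/choroid complex was collected in TRIzol, purified on columns and amplified with SMARTer chemistry. The submitters' processing notes name bcl2fastq, DRAGEN, edgeR, limma and GRCm38. No version comes with them, and the counter, its strandedness and the gene annotation were not given in the sources used here. The authors deposited raw read counts per gene, not normalized, of which 276 repeated entries were collapsed. The authors also deposited a comparison table which, per the file headers, holds log2 CPM and log2 fold change, p-values and adjusted p-values, and scores (a moderated statistic, log odds and a signed fold change). Its direction was checked against the group means of its own log2 CPM values.

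Counts were scaled with TMM and filtered with filterByExpr in edgeR 4.0.16 (R 4.3.3), leaving 17991 genes. The main test was the two-sided quasi-likelihood F-test of INK-ATTAC against control with no covariate, with Benjamini-Hochberg adjustment over all genes and a threshold of 0.05. The SE of a log2 fold change is its size over the square root of F. Levels are TMM CPM; levels per kb use union exon length from GENCODE. Log2 CPM for correlations used a prior count of 2, and correlations 100000 permutations. The biological coefficient of variation was 0.265. No pair of libraries of a group repeated another (lowest chi-square per gene 30.0). SMARTer reads without molecular identifiers are not independent molecules, so counting precision is overstated by totals. Alternatives used DESeq2 1.42.0 and limma 3.58.1. The edgeR test was tried on simulated counts with known changes.

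The members and gene lists were chosen with earlier results of these data known. Named genes were all members, the 2 genes most like each, any CC chemokine receptor and, of other lists, the 3 of lowest p. Not every CC chemokine receptor is reported here.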

Additional observations from a re-analysis of the deposited data

Results flagged for a closer look

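In 20 groups of values (10 genes in 2 groups), the gap between an extreme library and its nearest neighbour was set against the range of the group. For normally distributed values, chance alone flags about 1 of 20 groups. The comparison used CPM, not log2 CPM, and how far these CPM values depart from such a distribution was not tested. Ccl5 in INK-ATTAC 2 was 51.6 CPM, where the next INK-ATTAC library held 21.8 CPM. Ccl5 in control 6 was 39.5 CPM, where the next control library held 20.8 CPM. Ccl4 in control 6 was 6.32 CPM, where the next control library held 4.08 CPM.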

How the results depend on the processing

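Under 29 alternatives, 0 members passed an adjusted p of 0.05. Over all genes, 0 were called by the main test and under the other alternatives, but 6 with DESeq2 and 2 with quality weights. Of members at an unadjusted p under 0.05, 2 in the main test, there were 4 in low-Xist libraries alone, 1 in high-Xist libraries alone, 1 with limma-voom, 0 with the skeletal muscle covariate, and 1 to 2 on leaving out a library, 1 without INK-ATTAC 1 or INK-ATTAC 2. In each case with 1 other than high Xist, Ccl4 was the one lost. On leaving out a library, all genes at an unadjusted p under 0.05 ran from 561 of 18151 (without control 4) to 1123 of 18192 (without control 3). Ccl3 and Ccl4 kept a positive fold change under all 29.

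Small log2 fold changes turned sign, and the cause was not tested. In high-Xist libraries Ccl11 was -0.22, Ccl12 -0.0054, Ccl5 -0.98 and Ccl8 -0.66. In low-Xist libraries Ccl2 was 0.28, Ccl6 0.16, Ccl7 0.26 and Ccl9 0.28. With the muscle covariate Ccl11 was -0.067, Ccl12 -0.0084 and Ccl8 -0.56. With Xist class as covariate Ccl8 was -0.11 and Ccl9 0.0083. Ccl9 was 3.4e-04 without a filter and 0.034 with limma-voom, and with quality weights Ccl6 was 0.080, Ccl7 0.11 and Ccl9 0.14. On leaving out each library, values ran from -0.012 to 0.24 for Ccl11, -0.28 to 0.046 for Ccl2, -0.31 to 0.52 for Ccl5, -0.10 to 0.070 for Ccl6, -0.23 to 0.12 for Ccl7, -0.29 to 0.32 for Ccl8 and -0.072 to 0.12 for Ccl9.

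INK-ATTAC and control libraries of the same title number had r from -0.10 to 0.29 over all genes, with group means removed. For the same description number r ran from -0.15 to 0.23. The control of the same number was the most similar control for title numbers 1, 5, 6 and 7, and for description number 2. The labels do not say that either number marks pairs, and pairing was not tested. With a replicate block by either number, 1 member had an unadjusted p under 0.05 in edgeR. Of all 17991 genes, 734 did so with the title block and 751 with the description block. Ccl8 was -0.030 with the description block. Of 45 pairs of members, 14 passed the threshold without centring and 14 without the 2 farthest libraries, beside 17.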

Other observations

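Leucocyte lists that CC chemokines could draw on gave the following counts, none with a gene past an adjusted p of 0.05 in edgeR, and are to be read against the 4.14% of all genes at an unadjusted p under 0.05. All 10 neutrophil genes tested had a negative log2 fold change, with 1 at an unadjusted p under 0.05, Mmp8, a neutrophil collagenase, with 2.55 ± 0.51 CPM in INK-ATTAC and 3.71 ± 0.91 CPM in control libraries (-0.54 ± 0.17 SE). Of 14 monocyte genes, 5 had a positive and 9 a negative fold change, with 2 at an unadjusted p under 0.05. These were Cd300e, at 0.43 ± 0.19 CPM in INK-ATTAC and 1.13 ± 0.37 CPM in control libraries, and Treml4, at 1.15 ± 0.19 CPM in INK-ATTAC and 2.05 ± 0.56 CPM in control libraries, both known from nonclassical monocytes. Nr4a1, Ace and Spn, also known from these cells and on the same list, were not among the 2. Of 16 T and NK cell genes, 10 had a positive and 6 a negative fold change. Of 9 dendritic cell genes 4 had a positive fold change, and of 8 mast cell genes 1, with 0 at an unadjusted p under 0.05 in these lists.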
